A study of Mus musculus with 16 samples.

Results

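RANKL was added to RAW264.7 cells that had also received extracellular vesicles of PC3M cells, and the cells were collected at 48 h. RAW264.7 is a mouse macrophage line, labelled here as an osteoclast precursor because it can be turned into multinucleated osteoclasts in culture. PC3M is a metastatic human prostate carcinoma line, and its vesicles are membrane-bound particles released by those cells. The libraries compared were 4 of the 16 in the series: 2 from cells given PC3M derived EVs at 30 µg/mL together with recombinant mouse RANKL (GST-RANKL) at 10 ng/mL, and 2 from cells given the EVs alone. They were chosen by their labels and no measured value was used. All 16 libraries came from RAW264.7 cells in MEM with 10% fetal bovine serum, treated after 12 h of attachment. Besides these groups, libraries from cells given PBS and from cells given RANKL without vesicles, and the same 4 treatments at 72 h, had 2 libraries each. Nothing in the labels says that the 2 libraries of a group are separate cultures. The p-values therefore reflect the spread within the groups of these 16 libraries, of both times, which may be technical. The column of the second vesicle-plus-RANKL library carries a plus sign and a 2 but lacks the letter that marks RANKL, and was assigned to that group because the vesicle libraries have columns of their own. The question addressed is what RANKL still changes when the vesicles are present.

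RANKL is the cytokine that drives osteoclast formation. It binds its receptor RANK, encoded by Tnfrsf11a, on myeloid precursors, and the adaptor TRAF6 relays the signal to NF-κB, to MAP kinases and to AP-1 factors, which together induce the transcription factor NFATc1. NFATc1 then switches on the genes of the mature cell: fusion proteins, the proton pump that acidifies the resorption pit, and the enzymes that digest bone matrix, while repressors that keep the cell a macrophage, such as IRF8, are shut off.

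The deposited values were read as log2(RPKM + 1), where RPKM is a read count scaled to transcript length and library depth. Levels below are given as RPKM, computed back from them. A log2 change is a difference on the log2(RPKM + 1) scale, which understates the change of genes near 0. The estimated depth was 18400000 to 20000000 reads a library, at which 3 reads on a transcript of 1 kb correspond to 0.15 to 0.163 RPKM. In the 4 libraries compared, 15083 to 15254 genes were above 0, mitochondrial genes held 19.3 to 24.3% of the summed RPKM, and replicates correlated at 0.9952 or more. Replicates correlated at 0.9948 or more in the groups of 48 h and at 0.9839 or more over all 16 libraries, whose spread entered the test. Of 20490 genes, 10365 reached a value of 1 or more on the log2 scale in at least 2 of the 16 libraries and were tested. A gene was called when limma's Benjamini-Hochberg adjusted p was under 0.05.

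Among tested genes, 988 (9.53%) were called with RANKL on vesicles at 48 h. Of these, 410 (3.96%) were higher and 578 (5.58%) lower, and 70 (0.675%) rose and 141 (1.36%) fell by at least 2-fold. The median change over all tested genes was 0.03, with a median standard error of 0.119. The 2 vesicle-plus-RANKL libraries lay wholly above or below the 2 vesicle libraries in 63.6% of tested genes. Fitted on the 8 libraries of 48 h alone, 1167 genes rose and 1021 fell. The count depended on each library, with 363 genes called without the vesicle library 2, 587 without the vesicle library 1, 444 without the vesicle-plus-RANKL library 1 and 538 without the vesicle-plus-RANKL library 2.

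The receptor itself did not pass the test. Tnfrsf11a stood at 32.2 and 35.9 RPKM in the vesicle libraries and at 35.9 and 35.4 RPKM with RANKL, and the groups overlapped. Its log2 change was 0.07, with a 95% interval from -0.37 to 0.50. Of 28 RANK signalling genes tested, 5 rose and 1 fell, with a median of 0.16. With the libraries of 48 h alone 9 rose and 1 fell. The calls, the fall included, depended on single libraries, and with 1 library left out the median ran from 0.13 to 0.16. Traf1, an adaptor gene that NF-κB induces, was at 1.38 and 1.40 RPKM with vesicles and at 5.53 and 7.63 RPKM with RANKL added. Nfkb2, which encodes the p100 precursor of the non-canonical NF-κB pathway, was at 10.7 and 12.9 RPKM against 26 and 30.7 RPKM. The libraries of both genes were well apart, and the log2 changes were 1.65 ± 0.18 for Traf1 (SE; limma adjusted p = 0.000214) and 1.20 ± 0.19 for Nfkb2 (limma adjusted p = 0.0015).

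The transcription factors of the osteoclast programme moved in both directions. Of 24 tested, 9 rose and 5 fell, with a median of 0.32. With the libraries of 48 h alone 14 rose and 6 fell, and without any 1 library 7 to 8 rose and 2 to 4 fell. Nfatc1 was at 46.7 and 49.7 RPKM in the vesicle libraries and at 147 and 141 RPKM with RANKL, a 2.99-fold difference of the means with no overlap. Its log2 change was 1.56 ± 0.17 (SE; limma adjusted p = 0.00018).

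AP-1 members were among the largest rises. Fosl2, which encodes the FOS-family protein FRA-2, was at 12.9 and 11.4 RPKM with vesicles and 51.1 and 45.4 RPKM with RANKL. Jdp2, whose product pairs with JUN proteins and is needed for osteoclast formation, was at 47.1 and 47.5 RPKM against 174 and 180 RPKM. Both genes had tight replicates, and their log2 changes were 1.90 ± 0.17 for Fosl2 and 1.89 ± 0.14 for Jdp2. Prdm1 encodes BLIMP1, a repressor of the macrophage repressors. It was at 0.162 and 0.0681 RPKM with vesicles, near or below the level of 3 reads on a transcript of 1 kb. With RANKL it was at 2.52 and 1.90 RPKM, a log2 change of 1.52 ± 0.18 (limma adjusted p = 0.000286).

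Myc, a transcription factor of growth and metabolism that RANKL induces early in osteoclast precursors, was at 7.51 and 14.9 RPKM with vesicles. With RANKL it was at 48.0 and 77.1 RPKM, a 5.57-fold difference. The spread within each group was wide but the groups did not overlap, and the log2 change was 2.41 ± 0.33 (limma adjusted p = 0.000824). Among 25 genes of MYC, nucleolus and ribosome biogenesis, Myc was the 1 gene called, and the median was 0.13, while 4 rose with the libraries of 48 h alone.

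Several brakes of osteoclast formation fell. Of 19 tested, 6 fell and 2 rose, with a median of -0.22. The calls, rises as well as falls, depended on single libraries, and with 1 library left out the median ran from -0.21 to -0.0015. Irf8, an interferon regulatory factor that blocks NFATc1, was at 5.49 and 5.62 RPKM with vesicles and at 0.971 and 0.788 RPKM with RANKL. Its groups did not overlap, and the log2 change was -1.80 ± 0.26 (SE; limma adjusted p = 0.000961). Bcl6, another repressor, was lower by less, with a log2 change of -0.66 ± 0.15. Its call was lost without the vesicle library 2 (adjusted p = 0.148) and without the vesicle-plus-RANKL library 1 (adjusted p = 0.132).

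The resorption machinery gave the largest rises. Of 21 genes tested, 8 rose and 0 fell, and the median change was 0.50 against 0.03 over all genes. With the libraries of 48 h alone 13 rose and 1 fell, and without any 1 library 6 to 7 rose. Ctsk encodes cathepsin K, the protease that digests bone collagen. It was at 5.19 and 3.92 RPKM in the vesicle libraries and at 87.9 and 46.4 RPKM with RANKL. The libraries with RANKL were widely spread, yet both lay far above the vesicle libraries. The means differed 14.7-fold, and the log2 change was 3.56 ± 0.49 (SE; limma adjusted p = 0.000835).

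Acp5 encodes tartrate-resistant acid phosphatase, the classical stain of osteoclasts. It was at 20.5 and 16.2 RPKM with vesicles and at 209 and 168 RPKM with RANKL, with no overlap and a log2 change of 3.29 ± 0.26 (limma adjusted p = 2.93e-05). The proton pump subunit Atp6v0d2, which precursors need to fuse, was at 16.7 and 10.8 RPKM against 161 and 112 RPKM, a log2 change of 3.23 ± 0.32 (limma adjusted p = 0.000116). Mmp9, a gelatinase of osteoclasts, was at 0.326 and 0.211 RPKM against 6.70 and 4.30 RPKM. Slc9b2, a sodium-proton exchanger, was at 0.495 and 0.253 RPKM against 5.88 and 4.11 RPKM. Mmp9 and Slc9b2 were low with vesicles, at no more than 0.495 RPKM, and at 4.11 RPKM or more with RANKL. Src, the kinase that organises the ruffled border, was at 1.51 and 1.80 RPKM against 9.86 and 6.91 RPKM, a log2 change of 1.81 ± 0.25.

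**Figure D1:**
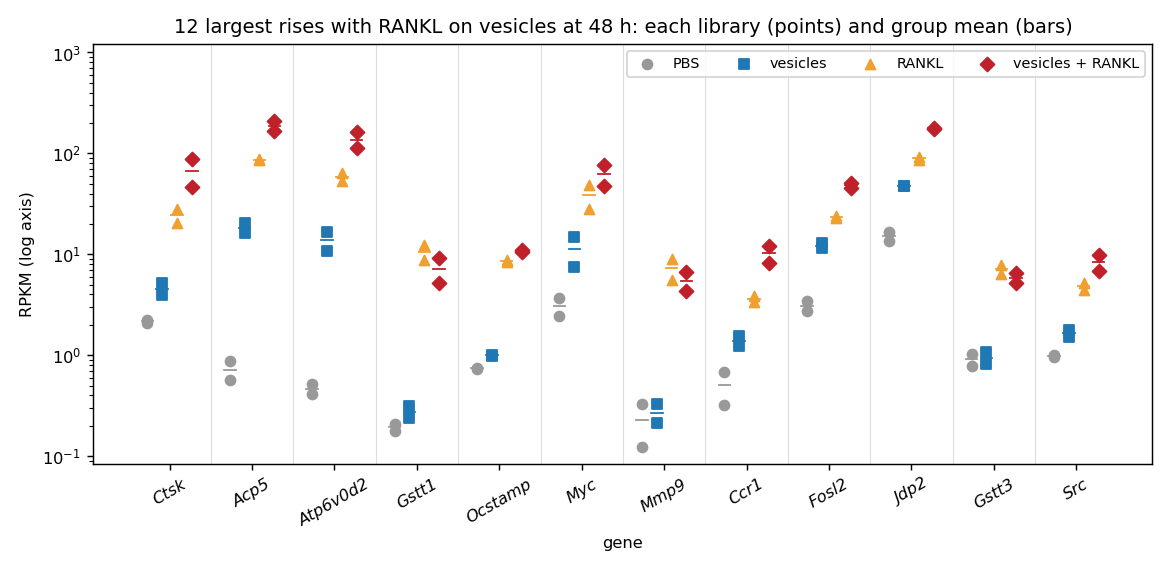
RPKM on a log axis of the 12 genes with the largest rises when RANKL was added to vesicles at 48 h, with each library as a point and the group mean as a short bar. By the rule that chose them, each of the 12 genes has both red diamonds (vesicles + RANKL) above both blue squares (vesicles). The grey circles (PBS) and orange triangles (RANKL without vesicles) give the same addition without vesicles.

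The promoter windows of Ctsk and Acp5, the 2 genes with the largest rises, are given here with that of Cx3cr1, a gene with a large fall. They are RefSeq windows of GRCm38.p6 from 250 bases before to 50 after a transcript start, on the gene's strand. Capitals mark matches on either strand to TGGAAA, the core bound by NFAT proteins, to TGANTCA, the AP-1 site, or to GAGGAA, the core bound by the myeloid factor PU.1, so that TTTCCA and TTCCTC are matches on the opposite strand. Acp5 has 3 windows in the table, and the one shown was picked because it holds a match.
Ctsk, chr3:95498960-95499259, + strand: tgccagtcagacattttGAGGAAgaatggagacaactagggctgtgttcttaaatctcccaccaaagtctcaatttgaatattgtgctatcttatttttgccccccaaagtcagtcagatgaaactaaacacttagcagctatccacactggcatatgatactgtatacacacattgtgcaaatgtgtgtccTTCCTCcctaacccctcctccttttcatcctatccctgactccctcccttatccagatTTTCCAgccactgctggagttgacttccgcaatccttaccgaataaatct
Acp5, chr9:22130549-22130848, - strand: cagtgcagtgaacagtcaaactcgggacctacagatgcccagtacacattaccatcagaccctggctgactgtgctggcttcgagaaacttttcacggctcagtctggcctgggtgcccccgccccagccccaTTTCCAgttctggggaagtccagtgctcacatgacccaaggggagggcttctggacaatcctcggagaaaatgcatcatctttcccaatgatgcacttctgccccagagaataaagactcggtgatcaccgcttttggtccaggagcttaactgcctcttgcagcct
Cx3cr1, chr9:120068247-120068546, - strand: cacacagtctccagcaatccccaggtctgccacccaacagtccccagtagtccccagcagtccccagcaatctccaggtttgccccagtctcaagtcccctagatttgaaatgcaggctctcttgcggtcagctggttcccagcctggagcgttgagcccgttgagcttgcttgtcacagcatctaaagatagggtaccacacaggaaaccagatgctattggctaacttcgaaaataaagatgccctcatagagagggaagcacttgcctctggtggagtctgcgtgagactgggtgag
The Ctsk window holds 3 matches, with TGGAAA at position 251 and GAGGAA at positions 18 and 193 counted from its 5′ end. The Acp5 window holds TGGAAA at position 134, and the Cx3cr1 window holds 0 matches. Such short motifs are frequent. TGGAAA occurs in 21.4% of 32851 windows, in 16.4% of windows of tested genes, in 18.5% of those of genes that rose and in 19.8% of those of genes that fell. TGANTCA occurs in 4.75% of windows of tested genes, in 5.11% for genes that rose and in 8.47% for genes that fell. GAGGAA occurs in 26.7%, 28.2% and 34.0% in the same order. In all windows, TGANTCA occurs in 7.81% and GAGGAA in 28.3%. A match describes the letters in the window, not binding, and windows of 301 of the 410 genes that rose and 420 of the 578 that fell were matched by symbol. No entry was used for Atp6v0d2, Ocstamp, Mmp9, Myc and Ighm.

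The vacuolar proton pump, which acidifies the space under the ruffled border, also moved at several subunits. Of 19 genes 6 rose and 1 fell, with a median of 0.36. With the libraries of 48 h alone 12 rose and 2 fell, and 3 rose without the vesicle-plus-RANKL library 2 and 2 without any other library. Atp6ap2, an accessory protein of the pump, was at 40.4 and 40.5 RPKM with vesicles and at 81.6 and 68.0 RPKM with RANKL, a log2 change of 0.86 ± 0.15 (limma adjusted p = 0.0028). Atp6v0a1, which encodes a membrane subunit of another isoform, was at 5.31 and 5.25 RPKM against 3.32 and 2.94 RPKM. Its fall of -0.61 was lost without the vesicle library 1 (adjusted p = 0.0661), without the vesicle library 2 (0.0748) and without the vesicle-plus-RANKL library 2 (0.0935).

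Of the fusion and costimulation genes, 4 of 23 rose and 4 fell, with a median of 0.03. Without the vesicle-plus-RANKL library 1 or the vesicle library 2, 2 rose and 2 fell, and 2 rose without the vesicle library 1. Ocstamp, a transmembrane protein required for fusion, was at 0.988 and 1.01 RPKM with vesicles and at 10.5 and 10.9 RPKM with RANKL. Its groups were far apart with close replicates, a log2 change of 2.55 ± 0.21 (limma adjusted p = 4.88e-05). Dcstamp, its partner in fusion, was at 1.73 and 1.71 RPKM against 7.5 and 6.66 RPKM. Its log2 change of 1.57 ± 0.35 passed (limma adjusted p = 0.0119), but the call was lost when any of the 4 libraries was left out: the adjusted p was 0.0645 and 0.0832 without the vesicle libraries 1 and 2, and 0.0916 and 0.0542 without the vesicle-plus-RANKL libraries 1 and 2. Trem2, an activating receptor that signals through DAP12, fell from 28.3 and 37.8 RPKM to 17.8 and 18.4 RPKM, a log2 change of -0.82 ± 0.13 (limma adjusted p = 0.00194).

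Late markers had little or uneven expression at 48 h. Oscar, the osteoclast-associated receptor, was at 0.369 and 0.0867 RPKM with vesicles and at 3.38 and 0.801 RPKM with RANKL. The libraries did not overlap, but the 2 libraries with RANKL differed widely, and the log2 change of 1.20 ± 0.40 missed the threshold (limma adjusted p = 0.081). It passed without the vesicle-plus-RANKL library 2 (1.85, adjusted p = 0.019) and with 0.1 in place of 1 as the added constant (adjusted p = 0.0293). Itgb3, the beta 3 chain of the osteoclast integrin, was at 0.0177 and 0.0272 RPKM against 0.373 and 0.190 RPKM, and missed the threshold (adjusted p = 0.274). Calcr, the calcitonin receptor, was at 0 in both vesicle libraries and at 0.0256 and 0.0261 RPKM with RANKL, too low to be tested.

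Other large rises lay outside these groups. Ccr1, a chemokine receptor of myeloid cells and osteoclasts, was at 1.55 and 1.25 RPKM with vesicles and at 12.2 and 8.24 RPKM with RANKL, a log2 change of 2.21 ± 0.32 (limma adjusted p = 0.00111). Gstt1 and Gstt3 encode glutathione transferases of the theta class. Gstt1 was at 0.24 and 0.315 RPKM against 9.16 and 5.21 RPKM, and Gstt3 at 0.817 and 1.08 RPKM against 6.59 and 5.15 RPKM. Their log2 changes were 2.64 ± 0.37 and 1.81 ± 0.24, with no overlap in either.

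Most genes of macrophage identity fell. Of 23 tested, 16 fell and 0 rose, and the median change was -1.11. With the libraries of 48 h alone 18 fell, and without any 1 library 11 to 14 fell. Their summed level was 9655 and 11110 RPKM in the vesicle libraries and 3120 and 3597 RPKM with RANKL. In bulk RNA, fewer cells of a type and less RNA per cell cannot be told apart. Lysozyme made up most of this sum. Lyz2 was at 4275 and 5532 RPKM with vesicles and at 1004 and 1401 RPKM with RANKL, a log2 change of -2.04 ± 0.20 (limma adjusted p = 0.000108). Lyz1 was at 3144 RPKM in both vesicle libraries and at 671 and 674 RPKM with RANKL. Both lysozyme genes were lower in each library with RANKL, and because they are close paralogs their reads may have been split between them.

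Cx3cr1, the fractalkine receptor, was at 68.7 and 93.9 RPKM with vesicles and at 10.7 and 14.6 RPKM with RANKL, a log2 change of -2.59 ± 0.28 (limma adjusted p = 0.000214). Fcgr1, the high-affinity IgG receptor, was at 11.1 and 12.6 RPKM against 1.56 and 1.50 RPKM, a log2 change of -2.34 ± 0.19. Fcgr3, a low-affinity IgG receptor, was at 17.6 and 15.5 RPKM against 3.19 and 2.09 RPKM, and its call was lost without the vesicle-plus-RANKL library 2 (-2.06, adjusted p = 0.0593). Msr1, the class A scavenger receptor, was lower by less, at 50.2 and 63.7 RPKM against 23.8 and 25.9 RPKM. Csf1r, the receptor for M-CSF, was at 269 and 297 RPKM against 214 and 197 RPKM, a log2 change of -0.46 ± 0.11. That call was lost without the vesicle library 2 (adjusted p = 0.185), the vesicle-plus-RANKL library 1 (0.0618) or the vesicle-plus-RANKL library 2 (0.142).

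The remaining large falls included phagocyte effectors and genes of other kinds. Cybb, the catalytic subunit of the phagocyte NADPH oxidase, was at 61.4 and 60.7 RPKM with vesicles and at 13.6 and 10.4 RPKM with RANKL. Mpeg1, a pore-forming protein of macrophages, was at 56.5 and 62.9 RPKM against 13.9 and 9.74 RPKM. Both changed by -2.26 on the log2 scale with no overlap. Dab2, an endocytic adaptor, was at 138 and 157 RPKM against 25.9 and 27.7 RPKM, and Ms4a6c, a membrane protein of monocytes and macrophages, at 33.3 and 33.1 RPKM against 6.24 and 5.83 RPKM. Igf1, the insulin-like growth factor, was at 8.48 and 9.80 RPKM against 1.12 and 0.86 RPKM, and Cav1, the coat protein of caveolae, at 12.1 and 22.6 RPKM against 1.80 and 3.45 RPKM. The largest fall was that of Ighm, the immunoglobulin mu heavy chain, from 11.8 and 7.93 RPKM to 0.954 and 0.298 RPKM, a log2 change of -2.75 ± 0.44 (limma adjusted p = 0.00181).

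**Figure D2:**
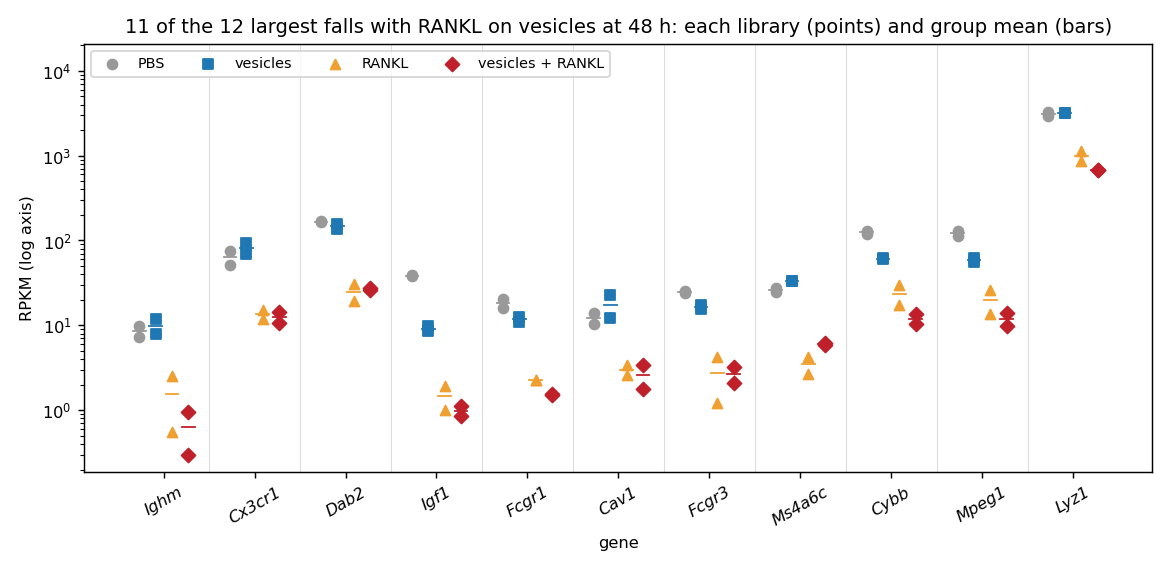
RPKM on a log axis of 11 of the 12 genes with the largest falls when RANKL was added to vesicles at 48 h, with each library as a point and the group mean as a short bar. By the rule that chose them, each of the 11 genes has both red diamonds (vesicles + RANKL) below both blue squares (vesicles). Lyz1 is the most abundant, at 3144 RPKM in both vesicle libraries.

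Inflammatory and interferon genes were among those that fell. Of 21 inflammatory mediators and chemokines tested, 9 fell and 1 rose, with a median of -0.55, and without any 1 library 3 to 4 fell. Ptgs2, the inducible cyclooxygenase, was at 7.60 and 9.96 RPKM with vesicles and at 2.86 and 3.77 RPKM with RANKL, a log2 change of -1.18 ± 0.15 (limma adjusted p = 0.000503). Cxcl16, a chemokine that also serves as a scavenger receptor, was at 26.5 and 39.9 RPKM against 8.18 and 13.8 RPKM. The 1 inflammatory gene that rose was Ccr1.

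Of 33 interferon-stimulated genes, 11 fell and 0 rose, with a median of -0.58. With the libraries of 48 h alone 19 fell, and 2 fell without the vesicle library 2, 5 without the vesicle-plus-RANKL library 1, 7 without the vesicle-plus-RANKL library 2 and 13 without the vesicle library 1. Parp9, a gene of the interferon response, was at 7.32 and 7.97 RPKM with vesicles and at 4.62 and 4.77 RPKM with RANKL, a log2 change of -0.60 ± 0.08 (limma adjusted p = 0.000839). Bst2, the antiviral protein tetherin, was at 19.8 and 19.4 RPKM against 13.2 and 11.8 RPKM. In antigen presentation, 4 of 15 genes fell and 1 rose. Of these 3 fell without the vesicle library 1 and 1 without any other library, and 0 rose. Nlrc5, the transactivator of class I MHC genes, was at 2.27 and 2.28 RPKM against 1.22 and 1.03 RPKM, a log2 change of -0.62 ± 0.11 (limma adjusted p = 0.00411).

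Iron storage and lysosomal proteases fell among abundant transcripts. Of 23 NRF2, heme and iron genes, 8 fell and 1, Gstt1, rose. The median was -0.37, and 2 fell without the vesicle library 2, 3 without the vesicle-plus-RANKL library 1 and 5 without either other library. Fth1, the ferritin heavy chain, was at 3520 and 3784 RPKM with vesicles and at 1601 and 1827 RPKM with RANKL, a log2 change of -1.09 ± 0.17 (limma adjusted p = 0.00151). Of 28 lysosomal genes 4 fell and 0 rose, with a median of -0.21, and with the libraries of 48 h alone 9 fell and 2 rose. Those 4 were all proteases, Ctsl, Ctsb, Lgmn and Ctsc. Ctsl, cathepsin L, was at 494 and 517 RPKM against 179 and 197 RPKM, and Ctsb, cathepsin B, at 469 and 464 RPKM against 209 and 192 RPKM. Their log2 changes were -1.42 ± 0.18 and -1.21 ± 0.22, opposite in sign to that of Ctsk. The call of Ctsc, cathepsin C, was lost without the vesicle library 2 (adjusted p = 0.102) or the vesicle-plus-RANKL library 1 (0.0867).

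Several genes of the stress response fell, and few genes of metabolism were called. The share called was 3.57% for the respiratory chain and TCA cycle, 8.0% for glycolysis and hypoxia and 3.85% for cholesterol and fatty acid synthesis. Among all tested genes it was 9.53%. With the libraries of 48 h alone more were called in these lists, and also over all genes, 2188 against 988. Of 27 genes of the unfolded protein and ATF4 stress response, 6 fell and 0 rose, and with the libraries of 48 h alone 11 fell and 1 rose. There were 3 falls without the vesicle-plus-RANKL library 2 and 1 without any other library. Xbp1, a transcription factor of that response, was at 56.6 and 54.0 RPKM with vesicles and at 37.9 and 38.2 RPKM with RANKL, a log2 change of -0.53 ± 0.10 (limma adjusted p = 0.00434). Of 28 genes of the respiratory chain and TCA cycle 1 rose, 3 did so after median scaling or quantile normalization, and with the libraries of 48 h alone 21 rose. The median was 0.29, and it cannot change with the libraries of 48 h alone, because the group means stay the same. Of 25 glycolysis and hypoxia genes 2 fell, and of 26 genes of cholesterol and fatty acid synthesis 1 fell; these were 10 and 9 with the libraries of 48 h alone. Each of the 3 calls was lost when any of the 4 libraries was left out. The highest adjusted p was 0.218 for Pkm (without the vesicle library 2), 0.295 for Hif1a (without the vesicle-plus-RANKL library 1) and 0.15 for Dhcr7 (without the vesicle-plus-RANKL library 1). Of 32 genes of DNA replication and mitosis 1 rose and 0 fell, with a median of 0.06, and with the libraries of 48 h alone 5 rose and 3 fell. That gene, Cdkn1b, encodes the cell cycle inhibitor p27, and its call was lost without the vesicle-plus-RANKL library 1 (0.37, adjusted p = 0.304), the vesicle library 1 (0.0682) or the vesicle library 2 (0.224).

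In the smaller lists, 3 of 30 genes of actin ring, integrins and adhesion rose and 2 fell, 3 of 24 immediate early and MAPK feedback genes rose and 1 fell, 2 of 18 genes of the TGF-beta and BMP pathway fell, 4 of 17 genes of lipid efflux fell, 2 of 5 genes of the M-CSF and GM-CSF receptors fell, and 1 of 13 genes of the BCL2 family rose and 2 fell. Over all tested genes 3.96% were higher and 5.58% lower. Several of the counts, such as 2 of 30 and 1 of 24 lower, lie near these shares. The counts also changed with single libraries. Of the lipid efflux genes, 2 fell without the vesicle library 1 and 1 without any other library, and of the receptor genes 1 and 0. Of the BCL2 family, 2 fell without the vesicle-plus-RANKL library 2, 1 without the vesicle library 1 and 0 without either other library, and 0 rose without any 1 library, after median scaling or after quantile normalization. Of the actin ring genes, 2 rose without the vesicle-plus-RANKL library 2 and 1 without any other library, and 0 fell without the vesicle library 2 and 1 without the vesicle-plus-RANKL library 2. Of the immediate early genes, 1 rose without the vesicle library 2 and 2 without any other library, and 7 fell with the libraries of 48 h alone; 0 fell without the vesicle library 1 or the vesicle-plus-RANKL library 1. Of the TGF-beta genes, 2 fell without the vesicle library 1 and 1 without any other library. Plin2, the lipid droplet coat protein, was at 12.5 and 15.0 RPKM with vesicles and at 5.47 and 5.38 RPKM with RANKL, a log2 change of -1.20 ± 0.19 (limma adjusted p = 0.00182). Spry1, a feedback inhibitor of receptor tyrosine kinase signalling, was at 0.018 and 0.0367 RPKM against 0.723 and 0.562 RPKM.

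**Figure D3:**
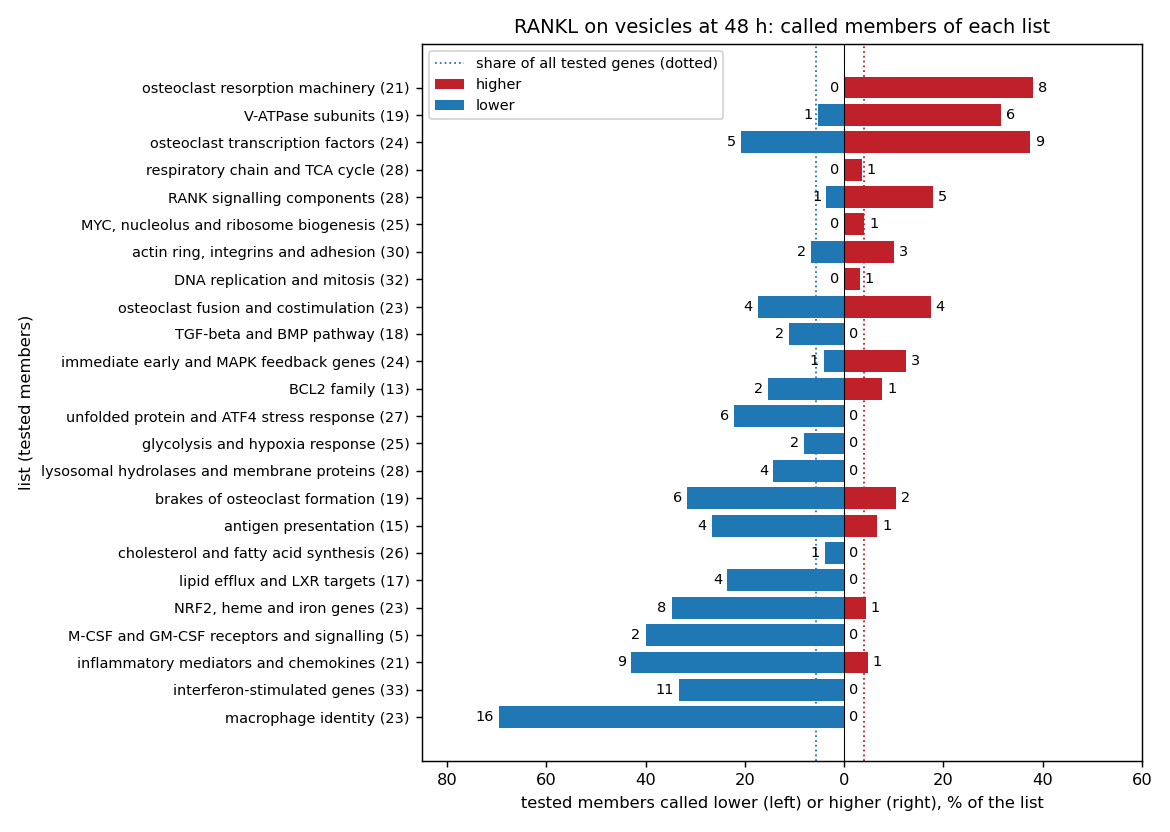
Share of the tested members of each list called higher (red, to the right) or lower (blue, to the left) with RANKL on vesicles at 48 h, with the number called at the end of each bar and lists ordered by their median change. Dotted lines mark the shares among all tested genes, 3.96% higher and 5.58% lower, and the resorption machinery (8 of 21 higher) and macrophage identity (16 of 23 lower) stand at the ends.

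Markers of epithelial, stromal and bone-forming cells summed to under 1 RPKM in the 4 libraries, and those of other blood cells to a few RPKM. Of 13 epithelial or carcinoma markers 6 were in the table, and Epcam, Krt8 and Krt19 were at 0 in the 4 libraries. The summed level of the 6 was 0.0571 to 0.0719 RPKM with vesicles and 0.148 to 0.202 RPKM with RANKL. Of 13 stromal and bone-forming markers 8 were in the table, led by Runx2 at no more than 0.792 RPKM, and Col1a1, Bglap and Ibsp were at 0. Their sum was 0.823 to 0.989 RPKM with vesicles and 0.435 to 0.497 RPKM with RANKL. The table held 12 of 20 other blood cell markers, of which 4 were tested, with Ms4a1, Mpo and Elane at 0. Their sum was 5.50 to 6.04 RPKM with vesicles and 3.35 to 5.10 RPKM with RANKL. Pf4, platelet factor 4, reached the highest level among them, at 3.05 and 2 RPKM with vesicles and 1.18 and 0.637 RPKM with RANKL. Its log2 change of -0.88 missed the threshold (limma adjusted p = 0.0772) and passed with the libraries of the comparison alone (adjusted p = 0.0262). S100a8, a neutrophil and monocyte gene, was at 0.981 and 1.31 RPKM against 0.288 and 0.221 RPKM, and that call was lost without the vesicle library 2 (adjusted p = 0.121) or either vesicle-plus-RANKL library (0.0546 and 0.0737).

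The same addition without vesicles, RANKL against PBS at 48 h, shares no library with the comparison above. It called 1530 genes (14.8%), of which 671 (6.47%) rose and 859 (8.29%) fell. Of the 988 genes called on vesicles, 777 were also called on PBS, 302 higher in both and 475 lower in both, and 0 went in opposite directions. That is 78.6% of the genes called on vesicles and 50.8% of those called on PBS. Across the 10365 genes, which are not independent replicates, Pearson's r between the changes was 0.864 and Spearman's rho 0.78. Both comparisons were scaled together and took their spread from the same fit.

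**Figure D4:**
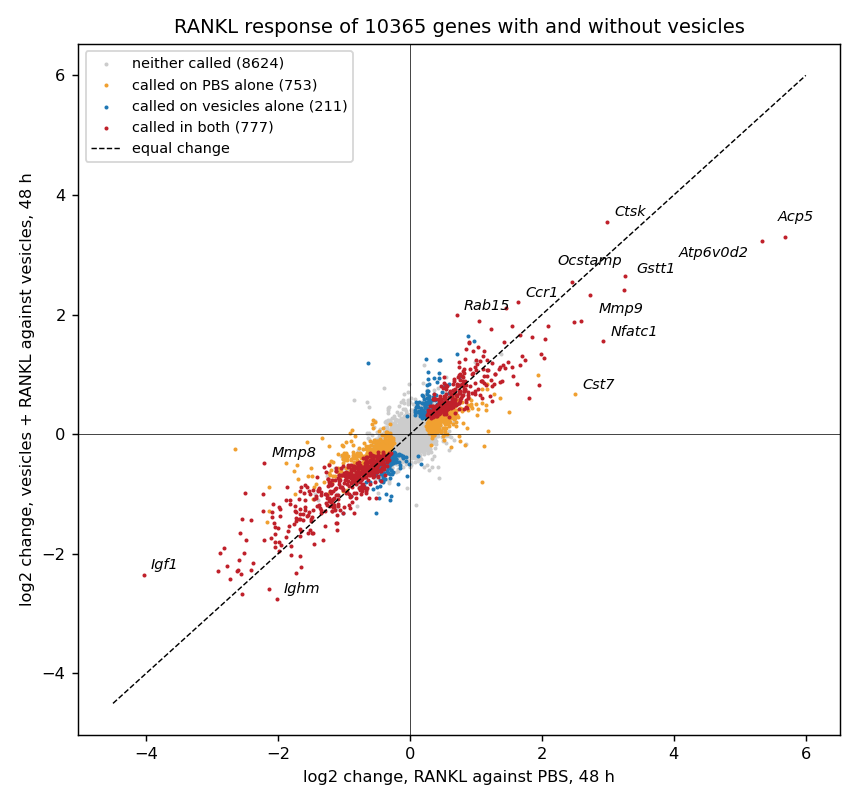
Log2 change of each of 10365 tested genes with RANKL on vesicles (vertical) against that with RANKL on PBS (horizontal) at 48 h, coloured by where the gene was called. The 777 genes called in both (red) lie at the lower left and upper right, and Acp5, Atp6v0d2, Nfatc1 and Igf1 lie between the dashed line of equal change and the horizontal axis.

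The size of the response was read for genes chosen in each comparison, because genes chosen for a large change in a comparison tend to change less in another. Of 82 genes (0.791%) that rose at least 2-fold on PBS, 67 changed less on vesicles, with a median absolute change of 1.08 against 1.28. Of 70 genes that rose at least 2-fold on vesicles, 29 changed less on vesicles, with 1.26 against 1.17. Of 227 genes (2.19%) that fell at least 2-fold on PBS, 197 changed less on vesicles. Of 141 that fell at least 2-fold on vesicles, 93 changed less on vesicles, with 1.31 against 1.54. Over all 10365 tested genes, 6235 changed less on vesicles, so that the share among falls chosen on vesicles lay near that of all genes. Of the 12 largest rises on vesicles 8 changed less on vesicles than on PBS, and of the 12 largest falls 7. These counts were not tested.

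The test of the difference between the responses called 1 gene (0.00965%), Mmp8, and 318 genes (3.07%) at an unadjusted p under 0.05. Mmp8, a neutrophil collagenase, was at 3.66 and 3.88 RPKM with PBS, at 0.0438 and 0.0204 RPKM with RANKL, at 0.47 and 0.457 RPKM with vesicles and at 0.0612 and 0.0416 RPKM with vesicles and RANKL. Both RANKL groups were at the level of a few reads, and the PBS libraries stood above all others. The log2 change was -2.21 on PBS and -0.48 on vesicles, a difference of 1.73 (95% interval 1.38 to 2.08, limma adjusted p = 0.00115). With 0.1 in place of 1 as the added constant it no longer passed (adjusted p = 0.442). The fall on vesicles was also lost when any of the 4 libraries was left out (adjusted p from 0.0969 to 0.112).

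Acp5 had the largest difference among the 12 largest rises. It was at 0.564 and 0.872 RPKM with PBS, at 20.5 and 16.2 RPKM with vesicles, at 88.0 and 85.5 RPKM with RANKL and at 209 and 168 RPKM with both. The 4 groups did not overlap, and RANKL raised the level 121-fold from PBS and 10.3-fold from vesicles. The difference of the log2 changes was -2.39 (95% interval -3.18 to -1.60), with a limma adjusted p of 0.0749. With the 8 libraries of 48 h alone the adjusted p was 0.00699, and it was 0.0189 with 0.1 as the added constant. With a term for the replicate number, whose meaning the labels do not give, it was 0.0491. Nfatc1 was at 11 and 13 RPKM with PBS and at 93.9 and 101 RPKM with RANKL, an 8.15-fold difference against 2.99-fold on vesicles. Its difference was -1.37 (-1.88 to -0.87, limma adjusted p = 0.108, 0.00699 with the libraries of 48 h alone and 0.0293 with the replicate term).

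For Rab15 the estimate lay in the other direction. This small GTPase of endosomal traffic was at 0.114 and 0.0116 RPKM with vesicles, at 3.39 and 3.04 RPKM with vesicles and RANKL, at 0.0116 and 0 RPKM with PBS and at 0.513 and 0.791 RPKM with RANKL. It rose on both, by 1.99 on vesicles and 0.71 on PBS, and the difference of 1.28 (0.81 to 1.75) missed the threshold (limma adjusted p = 0.108). The complement genes C1qa and C1qb were under 1 RPKM in all libraries at 48 h but those with PBS, where C1qa was at 2.57 and 1.66 RPKM and C1qb at 3.10 and 2.29 RPKM. Their differences were 1.42 and 1.40 (limma adjusted p = 0.0749 and 0.108, and 0.0225 and 0.0323 with the replicate term). C1qa passed without a filter on low values (adjusted p = 0.0338), after quantile normalization (0.0472), without the trend (0.0228) and without the PBS library 2 (0.0247).

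Some genes called with RANKL on PBS missed the threshold on vesicles. Cst7, cystatin F, was at 2.17 and 1.15 RPKM with PBS and at 13.5 and 14 RPKM with RANKL. With vesicles it was already at 12.7 and 8.18 RPKM, and at 20 and 14.1 RPKM with vesicles and RANKL. The log2 change was 2.50 on PBS and 0.67 on vesicles, a difference of -1.83 (-2.55 to -1.11, limma adjusted p = 0.147). With the replicate term the change of Cst7 on vesicles passed (limma adjusted p = 0.00904). Gja1, connexin 43, was at 4.06 and 3.12 RPKM with PBS, 15.5 and 9.26 RPKM with RANKL, 21.5 and 16.0 RPKM with vesicles and 28.2 and 21.2 RPKM with both, and its groups on vesicles overlapped. Its difference was -1.13 (-1.80 to -0.46, limma adjusted p = 0.808). Cd109 fell on PBS by 1.23 on the log2 scale and stood at 17.2 and 24.2 RPKM with vesicles against 18.6 and 17.0 RPKM with both, a difference of 1.04 (0.55 to 1.54, limma adjusted p = 0.401).

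Among the other largest rises, the interval of the difference lay below 0 for Atp6v0d2, Fosl2 and Jdp2, and each missed the threshold. The difference was -2.11 for Atp6v0d2 (-3.08 to -1.14, limma adjusted p = 0.376). It was -0.68 for Fosl2 (-1.22 to -0.15) and -0.60 for Jdp2 (-1.02 to -0.18), both with a limma adjusted p of 0.9999. For Ctsk, Ocstamp, Mmp9 and Fcgr1 the interval of the difference included 0. It ran from -0.95 to 2.08 for Ctsk, from -0.57 to 0.75 for Ocstamp, from -1.51 to 0.72 for Mmp9 and from -0.36 to 0.79 for Fcgr1. Such widths leave room for sizeable differences either way. Of the 12 largest rises on vesicles, 12 were also called on PBS and 9 reached a higher mean level with vesicles and RANKL than with RANKL without vesicles. Of the 12 largest falls, 12 were called on PBS and 10 reached a lower mean level with both. These genes were chosen by their levels in the same vesicle-plus-RANKL libraries, which favours such an order, and these counts were not tested. In the lists, the counts on PBS were 8 higher and 1 lower of 21 for the resorption machinery, 20 lower of 23 for macrophage identity, 1 higher and 23 lower of 33 for interferon-stimulated genes, 13 lower of 28 for lysosomal genes, and 3 higher and 1 lower of 19 for the proton pump. The counts of interferon and lysosomal genes that fell on PBS depended on single libraries. With 1 library left out, the median on PBS ran from -0.85 to -0.50 for the interferon genes and from -0.51 to -0.39 for the lysosomal genes. The test of the difference called 0 members of any list.

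At 72 h the same addition called 2278 genes (22.0%), 938 (9.05%) higher and 1340 (12.9%) lower, and 180 (1.74%) rose and 245 (2.36%) fell by at least 2-fold. After median scaling 1251 rose and 1163 fell, and after quantile normalization 1369 rose and 1268 fell. Without the vesicle-plus-RANKL library 1 of 72 h 1245 were called. With each time fitted on its own 8 libraries the order turned, with 1251 genes called at 72 h and 2188 at 48 h. Of the 988 genes of 48 h, 775 were called in the same direction at 72 h, 322 higher and 453 lower, and 1 in the opposite direction. They are 78.4% of the genes of 48 h and 34% of those of 72 h. All of the 12 largest rises and the 12 largest falls of 48 h were called at 72 h.

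More genes of the resorption machinery were called at 72 h. All 21 tested genes rose, with a median of 1.07 against 0.50 at 48 h, and 17 did so with the libraries of 72 h alone, 12 without the vesicle-plus-RANKL library 1 and 17 to 20 without any other library. Of 19 proton pump genes 13 rose and 0 fell, with a median of 0.73 against 0.36. At 72 h 6 rose without the vesicle-plus-RANKL library 1. Fitted on the 8 libraries of each time alone, 9 of the pump genes rose at 72 h and 12 at 48 h, so the order of the counts turned with the libraries fitted. Ctsk was at 23 and 8.91 RPKM with vesicles and at 413 and 249 RPKM with RANKL at 72 h. Ocstamp was at 0.623 and 0.823 RPKM against 21.9 and 22.3 RPKM, a log2 change of 3.75 at 72 h and 2.55 at 48 h. Dcstamp was at 2.18 and 2.39 RPKM against 22.5 and 19.9 RPKM. Of the late markers, Oscar and Itgb3 were also measurable. Calcr was at 0 in both vesicle libraries and at 0.0781 and 0.133 RPKM with RANKL, and was not tested. Oscar was at 0.533 and 0.143 RPKM against 18.0 and 11.2 RPKM (3.52, limma adjusted p = 8.27e-05), and Itgb3 at 0.123 and 0.0179 RPKM against 1.48 and 1.03 RPKM (1.07, limma adjusted p = 0.000648).

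**Figure D5:**
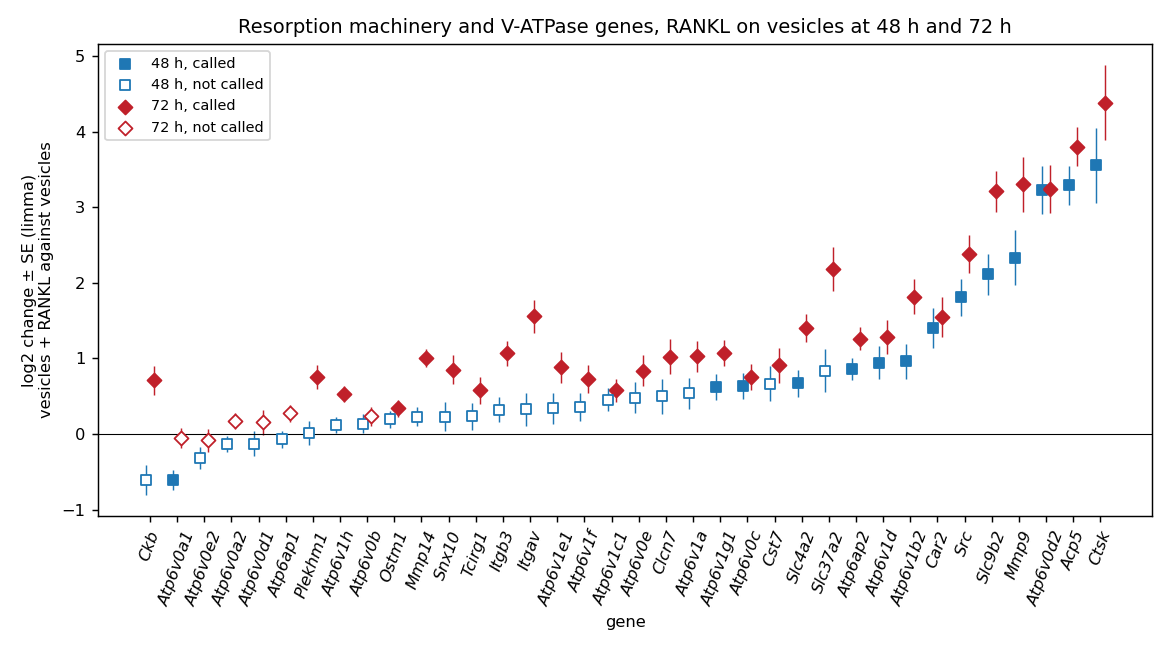
Log2 change with RANKL on vesicles of each tested gene of the resorption machinery and the proton pump, with its limma standard error, at 48 h (blue squares) and 72 h (red diamonds), filled where called. Genes are ordered by their change at 48 h, from Ckb to Ctsk, and more symbols are filled at 72 h, including all 21 genes of the resorption machinery.

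The test of the difference between the times called 0 genes in limma (0%), with 1069 (10.3%) at an unadjusted p under 0.05. Without the vesicle library 2 of 72 h it called 6. Among the 6 smallest p-values were those of Angptl2, Tnfsf8, Sema7a, Mthfd2 and Agap1. Angptl2, a secreted angiopoietin-like protein, changed by 0.06 at 48 h and 1.16 at 72 h, a difference of 1.10 (95% interval 0.71 to 1.50, limma adjusted p = 0.102). Mthfd2, a mitochondrial folate enzyme, was at 27.6 RPKM in both vesicle libraries and at 29.5 and 35.8 RPKM with RANKL at 48 h, and at 59.0 and 46.2 RPKM against 17.8 and 19.8 RPKM at 72 h. Its change was 0.23 at 48 h and -1.43 at 72 h, a difference of -1.66 (-2.28 to -1.04, limma adjusted p = 0.108). The difference for Ocstamp was 1.20 (0.54 to 1.85, limma adjusted p = 0.159) and that for Nfatc1 0.76 (0.25 to 1.26, limma adjusted p = 0.251).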

How the data were processed

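Messenger RNA of RAW264.7 cells was sequenced from TruSeq libraries, per the labels' protocols. The authors deposited 1 table of log2 values for 20490 genes and 16 libraries. The submitters' processing notes name FastQC, HISAT2 and Partek and the human builds GRCh38 and hg38, although the genes carry symbols of the mouse. Which build, annotation and counting rule gave these values is not given in the sources used here. The unit was read from the values. Taken as log2(RPKM + 1), low values of 4077 genes were compared with the gene's smallest value above 0, scaled for depth. They were whole multiples of it within 0.05 in 69.9% of 45147 values. The share was 59.4% for natural logs and 51.3% for log10. Depth was estimated from 582 single-exon genes. TruSeq mRNA libraries without stated strand cannot separate overlapping genes, and 24 rows with date-like names were left as they stand.

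All 16 libraries entered 1 limma 3.58.1 fit (R 4.3.3) of 8 group means with a mean-variance trend and 8 residual degrees of freedom, with Benjamini-Hochberg adjustment over 10365 genes. Ranges in brackets are 95% intervals of that fit. The fit was tested on simulated data whose independent normal spread was taken from the fit itself, which favours recovery. Even so, of simulated differences of 0.5 on the log2 scale, 29.9% were recovered between the responses at 48 h and 22.4% between the times. Of differences of 1, 88.1% and 89.6% were recovered.

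Genes named are the 12 largest rises and 12 largest falls with no overlap and at least 5 RPKM in the higher group, the 4 of smallest adjusted p in each of 27 lists, a fixed list of osteoclast and vesicle genes, and the 6 of smallest p for each difference; a few of these are not reported here. Epcam, Krt8, Krt19, Col1a1, Bglap, Ibsp, Ms4a1, Mpo and Elane were named after their values were seen, as was Il2rg. Members and lists were chosen with earlier results of these data known. Of 627 listed genes, 596 were in the table and 523 were tested. Alternatives changed the libraries fitted, the filter, the added constant, the scaling, the trend and the replicate block, and left out each library.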

Additional observations from a re-analysis of the deposited data

Results flagged for a closer look

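Mmp8 was picked out because its response to RANKL differed between cells with and without vesicles, the 1 gene for which the test of the difference at 48 h passed. The difference was 1.73 on the log2(RPKM + 1) scale (limma adjusted p = 0.00115), from a change of -0.48 with vesicles and -2.21 without. It was at 3.66 and 3.88 RPKM with PBS and at no more than 0.47 RPKM in the other libraries of 48 h.

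Il2rg, the common gamma chain of several cytokine receptors, was picked out because both libraries moved one way at 48 h and the other way at 72 h. At 48 h it was at 31.7 and 30.6 RPKM with vesicles and at 38.8 and 42.5 RPKM with RANKL added, a log2 change of 0.37 (limma adjusted p = 0.0183). At 72 h it was at 36.3 and 34.1 RPKM against 26.8 and 28.5 RPKM, a log2 change of -0.34 (limma adjusted p = 0.0165). The difference was tested, at -0.71, and missed the threshold (limma adjusted p = 0.108).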

How the results depend on the processing

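The replicate numbers are shared by all groups but not shown to mark cultures, and with 2 pairs they could not be checked: deviations of same-numbered vesicle libraries with and without RANKL at 48 h correlated at 0.308, those of any 2 groups of 48 h from 0.14 to 0.476 and those of any 2 groups from -0.115 to 0.529. With the replicate block the calls on vesicles at 48 h numbered 1250, those of the difference at 48 h 8 and of the difference between times 1; Cst7 (adjusted p = 0.00904) and Pf4 (0.00531) passed on vesicles, and Acp5 (0.0491), Nfatc1 (0.0293), C1qa (0.0225) and C1qb (0.0323) for the difference at 48 h. Against 988 calls on vesicles at 48 h, 2188 were made with the libraries of that time and 1800 with those of the comparison, and 363 to 587 without 1 library. On PBS these were 3147, 2596 and 717 to 908 against 1530. At 72 h they were 1251, 1136 and 1245 to 2282 against 2278. The difference at 48 h called 4 genes with either set of libraries, 8 without a filter, 0 with a minimum of 5 RPKM, 2 after quantile normalization, 2 without the trend and 1 to 2 without 1 library. The difference between times called 24 without a filter and 0 to 6 without 1 library, and could not be fitted on 1 time. Of 92 named genes called at 48 h, 47 were called under all alternatives run and 48 without any 1 library. Pkm reversed after quantile normalization, 0.15 against -0.42; the cause was not tested. No scaling moved the median of all genes by over 0.1. Without 1 library, the lone library of its group was assumed to vary like the others. At under 0.15 RPKM, a transcript of 1 kb had fewer than 3 reads, and a longer one could have more.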
